A study of Mus musculus with 24 samples.

Results

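Expression of 10 chemokine genes was measured by bulk RNA sequencing in livers of WT and Adn-Lpin1-/- mice fed an LFD or an HFD. The 10 genes, Ccl2, Ccl5, Ccl6, Ccl9, Ccl24, Cxcl1, Cxcl9, Cxcl10, Cxcl12 and Cxcl13, were taken by their symbol from the 41388 genes counted in each library, and all 10 were found. Adn-Lpin1-/- mice carried floxed Lpin1 alleles and a Cre recombinase driven by the adiponectin promoter, so that the phosphatidic acid phosphatase lipin 1 was lost in adipocytes while the liver kept the gene. Their WT littermates carried the same floxed alleles without Cre, so every mouse of the study, control or not, was homozygous for the floxed allele. All mice were male, on a C57BL/6J background and 8 weeks old at the start of feeding. The LFD held 10% and the HFD 60% of kcal from fat, and the mice were fasted for 4 hours before tissue was taken. The labels give 16 weeks on diet and the study's methods 5 weeks. The 4 groups, WT LFD, Adn-Lpin1-/- LFD, WT HFD and Adn-Lpin1-/- HFD, held 5 libraries of single mice each, and the question was how the chemokine transcripts of the liver differ when adipocytes lack lipin 1, on either diet.

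Chemokines are small secreted proteins that bind G protein-coupled receptors on leukocytes and direct their movement along a concentration gradient. The CC and CXC families are named for the spacing of conserved cysteines. In a fatty liver, Kupffer cells, recruited macrophages, endothelium, stellate cells and stressed hepatocytes can all make them. Ccl2 draws monocytes that carry Ccr2, Ccl6 and Ccl9 are rodent ligands of Ccr1, Ccl5 attracts T cells and monocytes, and Ccl24 is an eosinophil chemokine that binds Ccr3. Cxcl1 draws neutrophils through Cxcr2, Cxcl9 and Cxcl10 are interferon-induced ligands of Cxcr3 on T and NK cells, Cxcl12 binds Cxcr4 and the scavenging receptor Ackr3, and Cxcl13 draws B cells through Cxcr5.

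Total counts of the 20 mice ranged from 36260187 to 81072794, with the lowest group median in WT LFD (40777580) and the highest in Adn-Lpin1-/- HFD (62306028). Values below are CPM, the number of reads of a gene for every 1000000 counted in its library, on library sizes scaled by the trimmed mean of M values (TMM). Of the 10 genes, 9 had over 1 CPM in at least 4 mice and were tested with the 13052 genes that passed this limit; Ccl2 passed 1 CPM in 2 mice only and was tested alone. Each group also had a library of pooled RNA, and in 38 of 40 pairs of a chemokine gene and a group the pool was between the lowest and the highest mouse, the exceptions being Cxcl13 in Adn-Lpin1-/- LFD and WT HFD. Lpin1 was not deleted in liver, so its RNA, between 120 and 1190 CPM in single mice, does not check the genotype labels. The hepatocyte gene Alb was present in every library, at 55500 CPM or more.

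Divided by exon length, Cxcl12 was the most abundant of these transcripts, at 33.4 ± 4.32 CPM per kb (SD, n = 20 mice), and its lowest mouse (24.4) was above the highest mouse of any other chemokine gene (19.1, for Ccl9). Ccl9 followed at 10.1 ± 3.88 CPM per kb, then Cxcl9 at 5.83 ± 3.23, Cxcl1 at 5.30 ± 2.15 and Ccl6 at 2.49 ± 0.822 CPM per kb. Cxcl10 (1.96 ± 1.22), Ccl5 (1.94 ± 1.22), Ccl24 (1.28 ± 0.462), Cxcl13 (0.78 ± 0.542) and Ccl2 (0.497 ± 0.47 CPM per kb) were lower. In 8 of the 9 pairs of neighbours in this order the intervals of mean ± SD overlapped, the exception being Cxcl12 and Ccl9. The order was the same in the deposited RPKM values. Counts behind the values ran from 10540 to 20357 reads per mouse for Cxcl12 and from 871 to 3405 for Ccl9, but from 8 to 246 for Cxcl13 and from 4 to 157 for Ccl2, so the last genes carry most counting error.

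**Figure D1:**
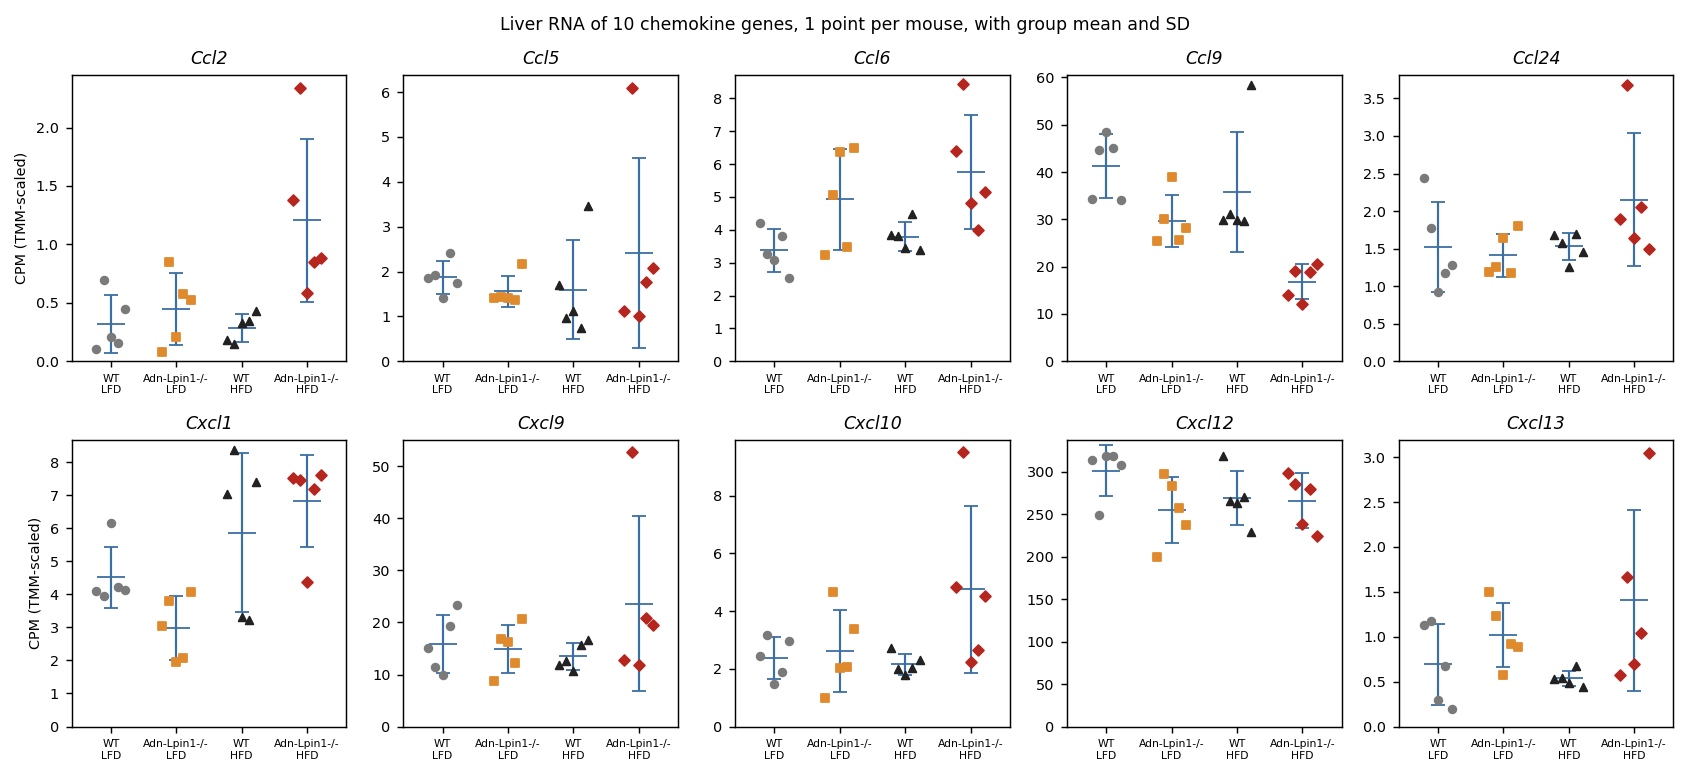
TMM-scaled CPM (y axis, from 0) of the 10 chemokine genes in each of the 20 mice, by group (x axis); horizontal ticks and bars give the group mean and SD of 5 mice. The mean of Ccl9 was lowest and that of Ccl2 highest in Adn-Lpin1-/- HFD, and mouse 2 of that group stood above the others for Ccl2, Ccl5, Ccl6, Ccl24, Cxcl9 and Cxcl10.

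In the comparison of Adn-Lpin1-/- with WT mice on an HFD, Ccl9 was 2.13-fold lower, and Cxcl10 (2.19-fold) and Cxcl13 (2.63-fold) were higher in Adn-Lpin1-/- livers. These were 3 of the 9 tested genes, beside 18.6% of all tested genes called in the same comparison, 9.87% higher and 8.78% lower. No test set this share against that of all genes. The median log2 difference of the 9 genes was 0.59, with 7 of 9 above 0, beside a median of 0.00 and 50.3% above 0 over all tested genes. Ccl2, tested alone, was also higher in Adn-Lpin1-/- HFD livers, with no overlap between the groups, as for 5.78% of all tested genes.

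On an LFD, none of the 9 genes was called by edgeR, beside 14.4% of all tested genes. At an unadjusted p under 0.05, 4 of the 9 genes differed (Ccl6 higher and Ccl9, Cxcl1 and Cxcl12 lower in Adn-Lpin1-/-), beside 28.9% of all genes. DESeq2's Wald test called 0 of the 9, beside 2248 of 13052 genes. Voom with quality weights called 1, Ccl9, beside 2217 of 13052. The median log2 difference of the 9 genes on an LFD was -0.11, with 3 of 9 above 0, beside 0.01 over all genes. The HFD against the LFD changed none of the 9 genes in WT mice by edgeR, DESeq2 or voom. Over all genes, edgeR called 1.1%, DESeq2 400 of 13052 and voom 670 of 13052. At an unadjusted p under 0.05, edgeR had 0 of the 9 (15.8% of all genes), DESeq2 0 (2094 of 13052) and voom 1 (2954 of 13052). In Adn-Lpin1-/- mice the HFD raised Cxcl1 and lowered Ccl9, 2 of the 9 genes beside 2.46% of all genes (1.2% higher, 1.26% lower). The genotype comparison on an HFD and the diet comparison in Adn-Lpin1-/- share the Adn-Lpin1-/- HFD mice, so their values are not independent of each other.

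Whether the genotype effect changed with diet was tested by the interaction term. By edgeR's quasi-likelihood test 0 of the 13052 genes were called (0.0%). At an unadjusted p under 0.05 there were 938 (7.19%), among them Ccl9 and Cxcl1. DESeq2's Wald test called 28 genes and voom with quality weights 0, none of them a chemokine gene. A dependence of the genotype effect on the diet was therefore not shown for these chemokine genes by this test. Averaged over both diets, the genotype contrast called Ccl6 and Cxcl13 higher and Ccl9 lower in Adn-Lpin1-/-, beside 32.9% of all genes (17.1% higher, 15.8% lower).

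**Figure D2:**
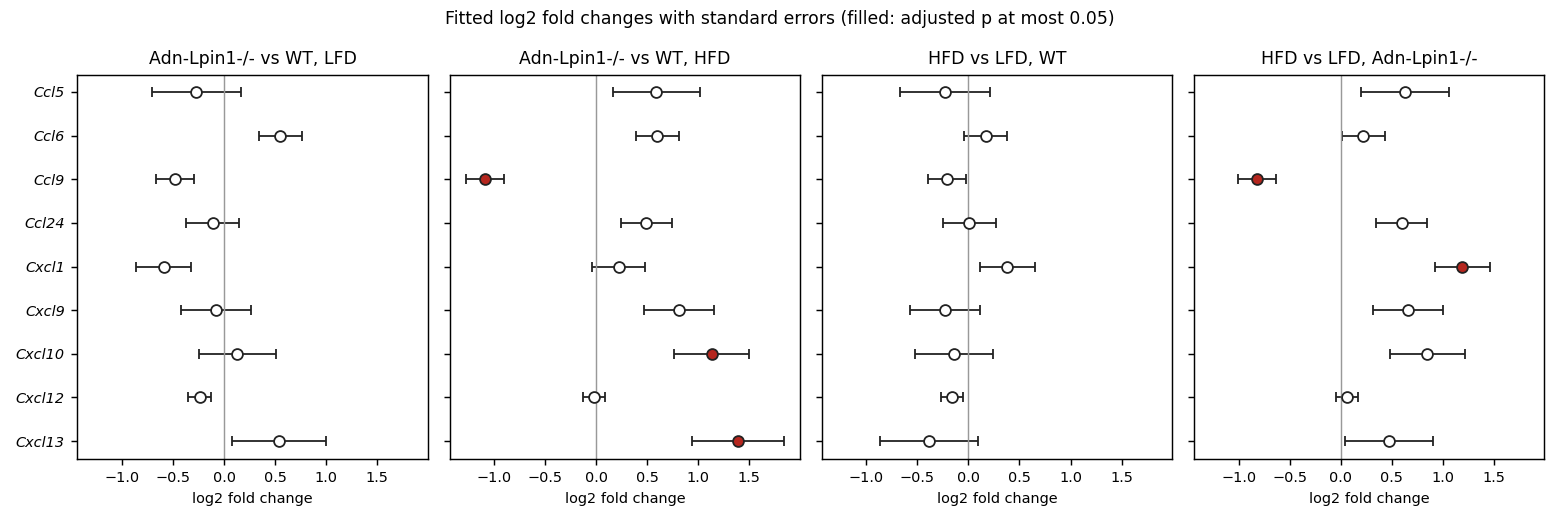
Fitted log2 fold changes (x axis) of the 9 tested chemokine genes (y axis) in 4 comparisons, with standard errors as bars; filled points had an adjusted p at or below 0.05. Ccl9 lay to the left of 0 in all 4 comparisons, and the filled points on an HFD were Ccl9 (-1.09), Cxcl10 (1.13) and Cxcl13 (1.39).

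The promoters of the 5 genes called in any of these contrasts are shown so that they can be read beside the values that follow. They are the 250 bases before the annotated start of each gene in RefSeq (GRCm38.p6), 5′ to 3′ on the strand of the gene, and entries were found for 7 of the 10 chemokine genes (not for Ccl2, Ccl5 and Ccl24). Capitals mark matches, on either strand, to an NF-kappaB motif, to the interferon-stimulated response element, to the AP-1 motif TGANTCA and to the TATA box TATAAA.
Ccl6 (chr11:83593088-83593337, minus strand): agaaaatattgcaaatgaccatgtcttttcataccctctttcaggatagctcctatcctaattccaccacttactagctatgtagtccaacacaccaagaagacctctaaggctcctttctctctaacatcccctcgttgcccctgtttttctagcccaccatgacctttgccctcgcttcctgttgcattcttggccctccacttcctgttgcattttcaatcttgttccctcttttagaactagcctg
Ccl9 (chr11:83578637-83578886, minus strand): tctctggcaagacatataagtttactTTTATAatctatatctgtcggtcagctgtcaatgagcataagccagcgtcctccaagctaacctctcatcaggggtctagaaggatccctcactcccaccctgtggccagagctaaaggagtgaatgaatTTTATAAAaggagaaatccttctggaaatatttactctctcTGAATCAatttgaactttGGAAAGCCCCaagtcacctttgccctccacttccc
Cxcl1 (chr5:90890995-90891244, plus strand): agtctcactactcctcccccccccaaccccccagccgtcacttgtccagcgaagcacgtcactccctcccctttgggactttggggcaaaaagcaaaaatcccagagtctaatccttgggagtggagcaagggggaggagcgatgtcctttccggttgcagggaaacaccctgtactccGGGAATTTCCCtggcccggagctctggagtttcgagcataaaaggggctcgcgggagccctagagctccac
Cxcl10 (chr5:92348890-92349139, minus strand): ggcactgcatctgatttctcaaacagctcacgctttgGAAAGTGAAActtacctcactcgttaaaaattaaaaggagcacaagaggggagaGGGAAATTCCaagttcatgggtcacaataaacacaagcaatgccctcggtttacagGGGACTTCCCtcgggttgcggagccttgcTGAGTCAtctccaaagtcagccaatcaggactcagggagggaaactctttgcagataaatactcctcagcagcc
Cxcl13 (chr5:95956689-95956938, plus strand): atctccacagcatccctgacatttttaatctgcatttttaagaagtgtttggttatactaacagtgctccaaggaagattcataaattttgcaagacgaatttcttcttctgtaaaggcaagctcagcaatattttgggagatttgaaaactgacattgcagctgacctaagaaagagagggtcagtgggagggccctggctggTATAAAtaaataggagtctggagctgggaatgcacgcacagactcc
Counted from the start site, Cxcl1 held an NF-kappaB match at -71 that overlaps a further match at -70, and Cxcl10 held NF-kappaB matches at -159 and -103, the response element at -213 and AP-1 at -74. Ccl9 held an NF-kappaB match at -35, AP-1 at -53 and TATA matches at -224, at -94 and, overlapping the latter, at -92. Cxcl13 held a TATA match at -46, and Ccl6 held none of these motifs. In windows of 300 bases, from 250 before to 50 after the start, the NF-kappaB motif was in 4.51% of 32851 RefSeq promoters, the response element in 3.44%, AP-1 in 7.81% and TATAAA in 13.6%. The interferon-gamma element TTCNNNGAA (8.3% of promoters) and the STAT6 element (6.95%) were in none of the 7 windows. These are matches of letters and not measured binding sites.

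Ccl9 and Ccl6, rodent CC chemokines that bind Ccr1, are neighbours on chromosome 11 of GRCm38, both on the minus strand. Ccl9 (ENSMUSG00000019122) runs from 83572919 to 83578636 and Ccl6 (ENSMUSG00000018927) from 83587882 to 83593087, with 9245 bases between them, and Ccl5 (ENSMUSG00000035042, 83525778 to 83530518, minus strand) lies 42400 bases from Ccl9. The neighbours moved in opposite directions with genotype. On an HFD, Ccl9 was 29.8, 31.1, 29.9, 29.7 and 58.3 CPM in WT mice 1 to 5. In Adn-Lpin1-/- mice 1 to 5 on the same diet it was 13.9, 19, 12.0, 18.8 and 20.5 CPM. Every Adn-Lpin1-/- HFD mouse was below every WT HFD mouse, as for 5.6% of all tested genes, and WT HFD mouse 5 stood apart above its group. The log2 difference was -1.09 ± 0.19 (SE; adjusted p = 0.000995), and without WT HFD mouse 5 it was -0.85 (adjusted p = 0.00136). The call held in all 11 other settings and with each of the 20 mice left out.

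On an LFD, Ccl9 was 34.3, 44.6, 48.5, 45.0 and 34.0 CPM in WT and 25.4, 30.0, 39.0, 25.6 and 28.2 CPM in Adn-Lpin1-/- mice. Adn-Lpin1-/- LFD mouse 3 lay among the WT LFD mice and the other 4 lay below them. The log2 difference on an LFD was -0.48 ± 0.19 (adjusted p = 0.0995) and did not pass the threshold. Between the diets, Ccl9 was 1.76-fold lower on the HFD in Adn-Lpin1-/- mice (log2 difference -0.82 ± 0.19, adjusted p = 0.0291), and every HFD mouse was below every LFD mouse, as for 2.04% of all tested genes. That call was lost when Adn-Lpin1-/- LFD mouse 2 or 3 or Adn-Lpin1-/- HFD mouse 1 or 3 was left out, with adjusted p up to 0.0927. In WT mice the diet difference of Ccl9 was -0.21 ± 0.19 (adjusted p = 0.645).

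Ccl6 was 6.39, 8.43, 4.81, 3.99 and 5.15 CPM in Adn-Lpin1-/- HFD mice 1 to 5 and 3.83, 3.82, 3.46, 4.47 and 3.39 CPM in WT HFD mice. On an LFD it was 3.24, 5.07, 6.36, 3.48 and 6.49 CPM in Adn-Lpin1-/- and 4.22, 3.26, 3.07, 3.80 and 2.54 CPM in WT mice. The groups overlapped on both diets, through 1 Adn-Lpin1-/- mouse on an HFD and 2 on an LFD. The log2 difference of Ccl6 was 0.60 ± 0.21 on an HFD (adjusted p = 0.0511) and 0.55 ± 0.21 on an LFD (adjusted p = 0.093), and each missed the threshold alone. On an HFD, 5 of the 11 other settings called it, among them DESeq2's Wald test (adjusted p = 0.0286), and so did 5 of the 20 fits with a mouse left out, with adjusted p from 0.00151 to 0.0917 over the settings and up to 0.176 with a mouse left out. On an LFD, voom with the pools called it (adjusted p = 0.00488). Averaged over both diets it was 0.57 ± 0.15 (adjusted p = 0.00629), a 1.49-fold rise that was called in all 10 other settings and with each mouse left out. For Ccl9 the same averaged contrast was -0.78 ± 0.14 (adjusted p = 0.000266), and it too held in all of them. With plain library totals the averaged differences were 0.69 for Ccl6 and -0.67 for Ccl9, with the median of all genes shifted by 0.11, so the directions were the same under both scalings.

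Ccl2 (ENSMUSG00000035385, chromosome 11, 82035571 to 82037453, plus strand), the monocyte chemoattractant, was scarce in every group. It was 1.38, 2.34, 0.586, 0.846 and 0.881 CPM in Adn-Lpin1-/- HFD mice 1 to 5, from 86, 157, 50, 49 and 71 reads. In WT HFD mice it was 0.182, 0.146, 0.329, 0.346 and 0.428 CPM, from 10, 8, 19, 18 and 25 reads. All 5 Adn-Lpin1-/- HFD mice were above all 5 WT HFD mice, and the ratio of the means was 4.21. The two-sided exact permutation test of log2(CPM + 0.5) gave p = 0.00794, the smallest that 5 mice against 5 allow, and 0.0318 after adjustment over the 4 comparisons of Ccl2. With each of the 10 mice left out in turn, the test gave log2 differences from 0.841 to 1.19, the lowest without Adn-Lpin1-/- HFD mouse 2.

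On an LFD, Ccl2 was 0.0758, 0.848, 0.207, 0.577 and 0.525 CPM in Adn-Lpin1-/- and 0.103, 0.697, 0.208, 0.156 and 0.444 CPM in WT mice, which overlapped (exact permutation p = 0.532). In Adn-Lpin1-/- mice the ratio of the means on the HFD to the LFD was 2.7 (exact permutation p = 0.0238, adjusted 0.0476), and Adn-Lpin1-/- LFD mouse 2, at 0.848 CPM, overlapped the HFD mice. In WT mice the ratio was 0.889 (exact permutation p = 0.865). With no limit on low counts, edgeR gave Ccl2 a log2 difference of 2.05 ± 0.51 (adjusted p = 0.0151) in the genotype comparison on an HFD. For diet in Adn-Lpin1-/- mice it gave 1.43 ± 0.49, which did not pass the threshold (adjusted p = 0.249, and 0.194 with the limit of edgeR's filterByExpr).

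Cxcl9 and Cxcl10, interferon-induced attractants of T and NK cells, lie 18558 bases apart on chromosome 5 of GRCm38 on the minus strand, Cxcl9 (ENSMUSG00000029417) from 92321331 to 92328079 and Cxcl10 (ENSMUSG00000034855) from 92346638 to 92348889. Cxcl10 was 4.85, 9.51, 2.24, 2.64 and 4.51 CPM in Adn-Lpin1-/- HFD mice 1 to 5. In WT HFD mice it was 2.72, 2.00, 1.78, 2.02 and 2.31 CPM. Adn-Lpin1-/- HFD mice 3 and 4 lay within the WT range and the other 3 above it, with mouse 2 the highest. The log2 difference was 1.13 ± 0.37 (adjusted p = 0.0388). Without Adn-Lpin1-/- HFD mouse 2 it was 0.71 (adjusted p = 0.171). The call held with 13 of the 20 mice left out, among them every LFD mouse, none of which is in this comparison. It was lost, at adjusted p = 0.0504 to 0.171, without WT HFD mouse 2, 3, 4 or 5 or Adn-Lpin1-/- HFD mouse 1, 2 or 5. Voom with quality weights did not call it (adjusted p = 0.0551). Exons of Cxcl10 overlap those of Art3 on the opposite strand, and the labels do not give a strand-marking kit. The study's methods counted only unambiguous reads, so if strand was not used, reads over both genes are missing from both counts. Art3 was 1.26 ± 0.324 CPM (SD, n = 5) in Adn-Lpin1-/- HFD and 0.791 ± 0.156 CPM in WT HFD, with a log2 difference of 0.67 ± 0.21 (adjusted p = 0.0346).

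Cxcl9 was 12.8, 52.8, 11.9, 20.9 and 19.6 CPM in Adn-Lpin1-/- HFD mice and 11.9, 12.5, 10.7, 15.6 and 16.7 CPM in WT HFD mice. Adn-Lpin1-/- HFD mice 2, 4 and 5 lay above the WT range, and mouse 2 was far above the rest. The log2 difference of Cxcl9 was 0.81 ± 0.34 (adjusted p = 0.0988), and it was 0.28 (adjusted p = 0.511) without mouse 2. On an LFD the genotype difference was -0.08 ± 0.34 for Cxcl9 (adjusted p = 0.9) and 0.13 ± 0.38 for Cxcl10 (adjusted p = 0.852). The direction on an LFD was not stable, since Cxcl9 turned to 0.01 with plain library totals and Cxcl10 to -0.17 without Adn-Lpin1-/- LFD mouse 2, which held the highest Cxcl10 of its group, 4.65 CPM.

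Cxcl13 (ENSMUSG00000023078, chromosome 5, 95956928 to 95961067, plus strand), the B cell attractant, was 0.576, 1.66, 0.692, 1.04 and 3.05 CPM in Adn-Lpin1-/- HFD mice 1 to 5. In WT HFD mice it was 0.529, 0.546, 0.484, 0.674 and 0.445 CPM. Only Adn-Lpin1-/- HFD mouse 1 lay within the WT range, and mouse 5 was the highest of all 20. The log2 difference was 1.39 ± 0.45 (adjusted p = 0.0378), and without Adn-Lpin1-/- HFD mouse 5 it was 0.88 (adjusted p = 0.144). The call was made in 8 of the 11 other settings (adjusted p up to 0.0855, with voom) and with 13 of the 20 mice left out. It was lost without any 1 of the 5 WT HFD mice and without Adn-Lpin1-/- HFD mouse 2 or 5, so it was near the threshold. Averaged over both diets, Cxcl13 was higher by 0.97 ± 0.32 on the log2 scale (adjusted p = 0.0268), and 0.71 (adjusted p = 0.0647) without Adn-Lpin1-/- HFD mouse 5. The averaged call was also lost with voom (adjusted p = 0.0583) and without WT LFD mouse 3 (0.0504) or Adn-Lpin1-/- LFD mouse 1 (0.0512). On an LFD its values ran from 0.574 to 1.50 CPM in Adn-Lpin1-/- and from 0.197 to 1.17 CPM in WT mice, with a log2 difference of 0.54 ± 0.46 (adjusted p = 0.468). The 4 B cell markers summed to between 2.45 and 4.68 CPM in Adn-Lpin1-/- HFD and between 1.86 and 3.48 CPM in WT HFD mice, and 0 of the 2 that were tested were called; their part in the Cxcl13 result was not tested.

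Cxcl1 (ENSMUSG00000029380, chromosome 5, 90891241 to 90893115, plus strand), the neutrophil attractant, differed with diet in Adn-Lpin1-/- mice. It was 3.05, 3.80, 1.94, 2.06 and 4.06 CPM in Adn-Lpin1-/- LFD mice 1 to 5 and 7.51, 7.47, 4.37, 7.18 and 7.60 CPM in Adn-Lpin1-/- HFD mice. Every HFD mouse was above every LFD mouse, as for 2.02% of all tested genes. The rise was 2.29-fold (log2 1.19 ± 0.27, adjusted p = 0.0227), and it was called in all 11 other settings. It was lost, at adjusted p = 0.0503 to 0.0732, without Adn-Lpin1-/- LFD mouse 3 or 4 or Adn-Lpin1-/- HFD mouse 1.

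In WT mice, Cxcl1 was 4.09, 3.96, 6.16, 4.22 and 4.12 CPM on an LFD and 7.02, 8.35, 3.32, 3.23 and 7.41 CPM on an HFD. The WT HFD mice fell apart into 3 above and 2 below the whole WT LFD range. The diet difference in WT was 0.38 ± 0.27 (adjusted p = 0.514). Between genotypes Cxcl1 was lower in Adn-Lpin1-/- on an LFD by -0.59 ± 0.27 (adjusted p = 0.151), and 0.22 ± 0.26 on an HFD (adjusted p = 0.599), so neither difference passed the threshold.

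Ccl5, Ccl24 and Cxcl12 were called in none of the comparisons by edgeR. Of the other tools, voom with the pools called each of them in 1 comparison, namely Ccl5 by genotype on an HFD (adjusted p = 0.0334), Cxcl12 by genotype on an LFD (adjusted p = 0.0334) and Ccl24 by diet in Adn-Lpin1-/- (adjusted p = 0.0457), with the mice of each pool counted again. Ccl5, an attractant of T cells and monocytes, was 1.12, 6.10, 1.01, 1.76 and 2.07 CPM in Adn-Lpin1-/- HFD mice and 1.71, 0.965, 1.11, 0.731 and 3.46 CPM in WT HFD mice. Its log2 difference on an HFD was 0.59 ± 0.43 (adjusted p = 0.36) and turned to -0.10 without Adn-Lpin1-/- HFD mouse 2, so the direction rested on that mouse. Ccl24 (ENSMUSG00000004814, chromosome 5, 135569937 to 135573043, minus strand) was 1.90, 3.68, 1.64, 2.05 and 1.49 CPM in Adn-Lpin1-/- HFD mice and between 1.26 and 1.69 CPM in WT HFD mice. The difference was 0.49 ± 0.25 (adjusted p = 0.184), and 0.21 (adjusted p = 0.581) without the same mouse. Between the diets in Adn-Lpin1-/- mice, Ccl24 differed by 0.60 ± 0.25 (adjusted p = 0.242).

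Cxcl12 (ENSMUSG00000061353, chromosome 6, 117168535 to 117181367, plus strand), the stromal ligand of Cxcr4, was at 200 CPM or more in every mouse. On an LFD its mean was 301 ± 29.5 CPM in WT and 255 ± 38.6 CPM in Adn-Lpin1-/- (SD, n = 5). On an HFD it was 269 ± 31.5 CPM in WT and 266 ± 32.4 CPM in Adn-Lpin1-/-. The genotype difference was -0.24 ± 0.11 on an LFD (adjusted p = 0.148) and -0.02 ± 0.11 on an HFD (adjusted p = 0.916). With plain library totals the value on an HFD was 0.11.

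Across the 20 mice some of these genes varied together, also within groups. On log2(CPM + 0.5), Pearson's r of Ccl2 and Cxcl10 was 0.87, and 0.82 for deviations from the group means. Cxcl9 and Cxcl10 had r = 0.74 (0.68 within groups), Ccl5 and Cxcl9 0.73 (0.72 within groups), and Ccl6 and Ccl24 0.66 (0.66 within groups). Ccl9 ran the other way over all mice, at -0.55 with Ccl2 and -0.49 with Ccl6, but at 0.21 and 0.14 within groups, and at 0.60 with Ccl5 within groups. Cxcl12 had values between -0.44, with Cxcl13, and 0.20, with Cxcl9. These are descriptions over mice that share diets, genotypes and libraries, and Adn-Lpin1-/- HFD mouse 2 lies at the upper end of several of them.

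**Figure D3:**
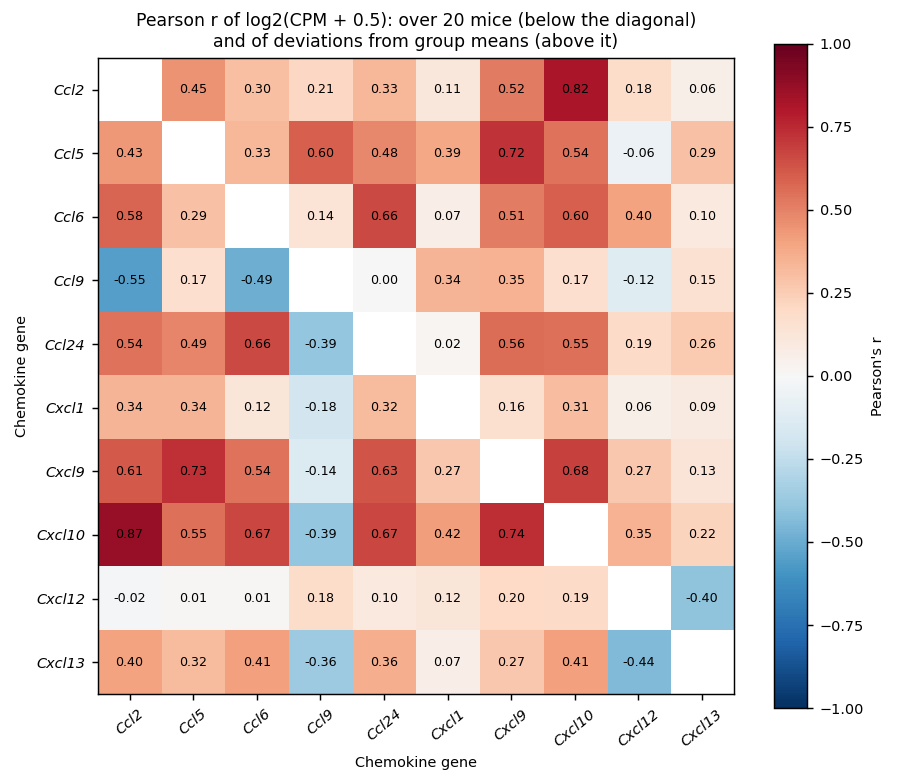
Pearson's r of log2(CPM + 0.5) between pairs of the 10 chemokine genes (both axes), over 20 mice below the diagonal and for deviations from group means above it; the color scale runs from -1 to 1. Ccl2 and Cxcl10 had the highest value on both sides of the diagonal (0.87 and 0.82), and the negative values of Ccl9 with Ccl2 and Ccl6 were positive within groups.

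In whole liver, fewer cells of a type and less RNA per cell cannot be told apart, so markers of the cell types that could hold these transcripts are given beside them. On an HFD, 5 of 7 Kupffer cell markers (Clec4f, Vsig4, Timd4, Cd5l and Csf1r) were higher in Adn-Lpin1-/-, beside 9.87% of all tested genes. On an LFD 0 of 7 were called, beside 14.4% of all tested genes. The summed level of the 7 markers ran from 176 to 409 CPM in Adn-Lpin1-/- HFD, from 134 to 171 in WT HFD, from 137 to 275 in Adn-Lpin1-/- LFD and from 111 to 205 CPM in WT LFD. The highest sum was that of Adn-Lpin1-/- HFD mouse 2. With this sum, Ccl6 had r = 0.85 over 20 mice (0.81 within groups), Cxcl10 0.79 (0.69), Ccl24 0.77 (0.74), Ccl2 0.67 (0.40), Cxcl9 0.65 (0.58) and Ccl9 -0.44 (0.24 within groups). Similar values were found with other marker sums, so these are not particular to Kupffer cell markers. Ccl24 had 0.77 (0.71 within groups) with the neutrophil markers, and Cxcl9 had 0.69 (0.62). Most of the neutrophil sum was the receptor gene Csf3r, with a mean of 3.76 of 5.46 CPM in Adn-Lpin1-/- HFD. Ccl6 had 0.78 (0.60) with the sinusoidal endothelium markers and 0.76 (0.64) with the stellate cell and fibroblast markers. Ccl9 had its highest value within groups with the T and NK cell markers, at 0.77, but 0.28 over the 20 mice.

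Of 7 tested monocyte and macrophage markers, Gpnmb was higher in Adn-Lpin1-/- on both diets and Itgax on an HFD. The highest WT value of Gpnmb was 0.391 CPM on an LFD and 0.423 CPM on an HFD. Gpnmb passed the limit on low counts through Adn-Lpin1-/- mice only, so its calls are not independent of that limit. The sum of the 10 listed ran from 25.3 to 62.0 CPM in Adn-Lpin1-/- HFD and from 15.9 to 35.5 CPM in WT HFD. Most of this sum was 1 gene, Spp1, in both groups, with a mean of 33.2 of 44.7 CPM in Adn-Lpin1-/- HFD. Spp1 was not called on an HFD (log2 0.66 ± 0.32, adjusted p = 0.16). The neutrophil receptor gene Csf3r, the tested one of 6 neutrophil markers, was higher in Adn-Lpin1-/- HFD, while the defining marker Ly6g stayed at or below 0.0685 CPM in every mouse. The sum of 9 T and NK cell markers ran from 4.90 to 10.3 CPM in Adn-Lpin1-/- HFD and from 5.68 to 8.66 CPM in WT HFD. Only 1 of the 9, Cd4, passed the limit on low counts and was tested, and it was not called on either diet. Of 5 sinusoidal endothelium markers 4 were higher on an HFD and 3 on an LFD, and of 8 stellate cell and fibroblast markers 2 were higher and 1, Hgf, lower on an HFD, and 4 were higher on an LFD. Of 5 hepatocyte markers, Alb, Apoa1 and Cyp2e1 were lower in Adn-Lpin1-/- on an HFD and Serpina1c on an LFD. Over all tested genes, 9.87% were called higher and 8.78% lower on an HFD, and 6.27% higher and 8.11% lower on an LFD. No test set the marker counts against these shares. The part of cell numbers in the chemokine values was not tested.

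**Figure D4:**
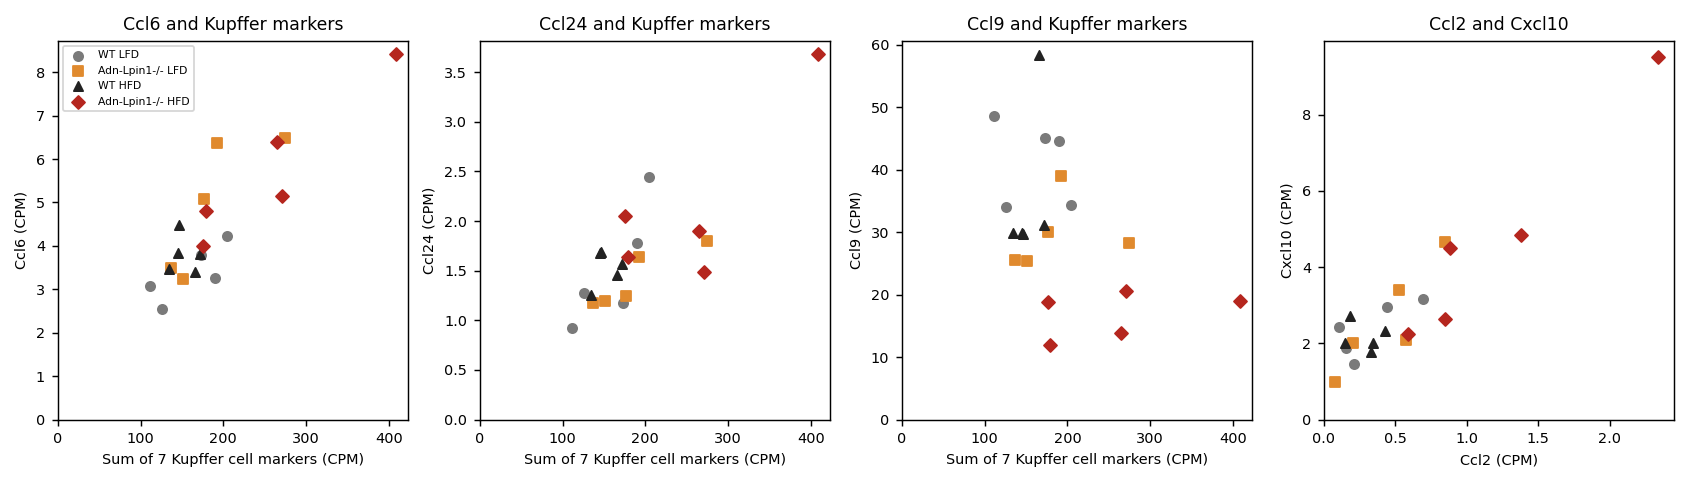
CPM of Ccl6, Ccl24 and Ccl9 (y axes) against the summed CPM of 7 Kupffer cell markers (x axes), and of Cxcl10 against Ccl2, 1 point per mouse and 1 symbol per group. Adn-Lpin1-/- HFD mouse 2 has the highest marker sum (409 CPM) and the highest Ccl6 (8.43 CPM) and Ccl24 (3.68 CPM), while Ccl9 shows no such rise.

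For each tested chemokine gene, the 3 genes with the highest r over the 20 mice were picked from 12458 genes with a mean of at least 1 CPM. Those of Ccl6 were Epb41l2 (0.92), the macrophage lysosomal gene Cd68 (0.92) and the macrophage sialoadhesin gene Siglec1 (0.91). Those of Cxcl9 were the interferon-inducible GTPase genes Tgtp1 (0.89) and Gbp2 (0.88) and the MHC class II gene H2-Ab1 (0.87), and those of Cxcl10 were Sirpa (0.87), Cd274 (0.87) and Trpv2 (0.86). Ccl9 was nearest to 3 ribosomal protein genes, Rps3a1 (0.93), Rps24 (0.92) and Rpl5 (0.91), with 0.73, 0.79 and 0.64 within groups. For deviations from group means, the 3 genes nearest to Ccl9 were others, Tnfsf12 (0.88), Inpp5e (0.82) and Amacr (0.82).

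Ccl24 was nearest to Agtrap (0.85), Tgtp2 (0.84) and Kctd12 (0.82), and Ccl5 to Fmnl1 (0.81), Fgd2 (0.78) and the immunoglobulin light chain gene Igkc (0.77). Cxcl13 was nearest to the leukocyte tetraspanin gene Cd37 (0.85), Arhgap4 (0.84) and Cops7b (0.82). Cxcl1 was nearest to Tbccd1 (0.80), the acute phase gene Saa3 (0.80) and Gpx1 (0.78), with 0.57, 0.61 and 0.54 within groups. For deviations from group means, the 3 genes nearest to Cxcl1 were others. Cxcl12 was nearest to Acot3 (0.77), Slco1a4 (0.74) and Tnks1bp1 (0.74).

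Receptors of these ligands that passed the limit on low counts included Ccr2, Ackr1 and the decoy receptor Ackr2. Ackr2 is given with the called receptor genes below. Ccr2, the receptor of Ccl2, had log2 differences of 0.81 ± 0.30 on an LFD (adjusted p = 0.0741) and 0.60 ± 0.28 on an HFD (adjusted p = 0.147), and 0.70 ± 0.21 averaged over both diets (adjusted p = 0.0126). The scavenging receptor Ackr1 had 0.66 ± 0.23 on an HFD (adjusted p = 0.0529). Ccr1, Ccr3, Cxcr2, Cxcr3, Cxcr4, Ackr3 and Cxcr5 were under the limit. Group means ran from 0.0844 to 0.185 CPM for Ccr1, from 0.0217 to 0.0536 for Ccr3, from 0.136 to 0.163 for Cxcr2 and from 0.346 to 0.485 CPM for Cxcr3. They ran from 0.473 to 0.745 CPM for Cxcr4, from 0.292 to 0.568 for Ackr3 and from 0.292 to 0.558 CPM for Cxcr5.

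Of 22 chemokine receptor genes, 6 were tested, and the genotype contrast called 3 of them on an LFD, beside 14.4% of all tested genes. On an LFD, the fractalkine receptor gene Cx3cr1 (log2 1.43 ± 0.47, adjusted p = 0.0467) and the decoy receptor gene Ackr2 (1.11 ± 0.22, adjusted p = 0.00287) were higher and the decoy receptor gene Ackr4 lower (-0.87 ± 0.19, adjusted p = 0.00465). No WT mouse reached 1 CPM of Cx3cr1 (highest 0.86 on an LFD and 0.865 on an HFD). It passed the limit on low counts through Adn-Lpin1-/- mice only, so its call is not independent of that limit. Of 30 other chemokine ligand genes in the files, 6 were tested and 1 was called on each diet, beside 14.4% of all tested genes on an LFD and 18.6% on an HFD. On an LFD, Cxcl14 was higher in Adn-Lpin1-/-, at 1.73 ± 0.583 against 0.852 ± 0.299 CPM (SD, n = 5; log2 1.02 ± 0.32, adjusted p = 0.0364). On an HFD, Cxcl16, the ligand of Cxcr6, was higher, at 9.37 ± 2.62 against 5.51 ± 0.556 CPM (log2 0.77 ± 0.17, adjusted p = 0.00576). Its groups did not overlap, as for 5.78% of all tested genes. No diet contrast called any of these receptor or ligand genes.

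**Figure D5:**
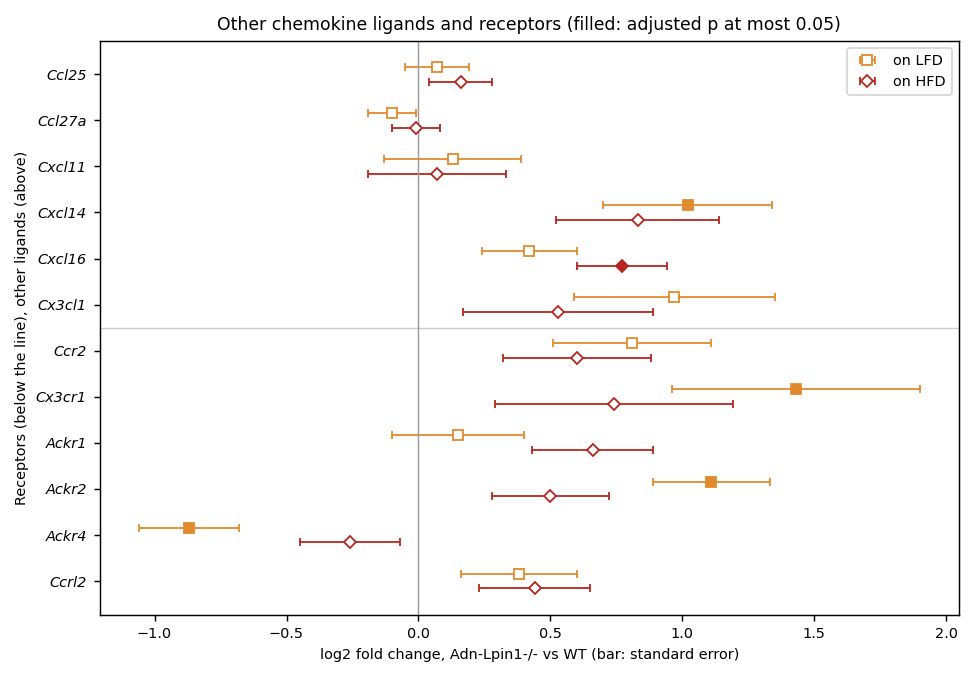
Fitted log2 fold changes of Adn-Lpin1-/- against WT (x axis, bars are standard errors) on an LFD and on an HFD for the 6 other chemokine ligand genes and the 6 receptor genes (y axis); filled points had an adjusted p at or below 0.05. Cxcl14, Cx3cr1, Ackr2 and Ackr4 are filled on an LFD, and Cxcl16 on an HFD.

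A list of 19 genes around chemokine induction held cytokines, transcription factors, the receptor gene Tlr4 with its adaptor Myd88, and the NF-kappaB inhibitors Nfkbia and Tnfaip3, and 13 of them were tested. Nfkb2, a subunit of the noncanonical NF-kappaB pathway, was higher in Adn-Lpin1-/- on an LFD (log2 0.55 ± 0.14, adjusted p = 0.0124) and on an HFD (0.48 ± 0.14, adjusted p = 0.0225). On an HFD its partner Relb (0.97 ± 0.24, adjusted p = 0.0105) and the cytokine gene Il1b (1.51 ± 0.44, adjusted p = 0.023) were higher too. The interferon-response gene Irf1 (0.36 ± 0.17, adjusted p = 0.156) did not pass the threshold on an HFD, and the interferon gene Ifng was under the limit, with no read in 14 of the 20 mice. Tnf was under the limit as well, at 0.465 ± 0.372 CPM in Adn-Lpin1-/- HFD and 0.0985 ± 0.0628 CPM in WT HFD (SD, n = 5). No diet contrast called any of the 13.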

How the data were processed

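Liver RNA was selected by poly-A, reverse transcribed with random hexamers and sequenced. The authors aligned reads to GRCm38 with STAR 2.5.1a and assigned them to genes of Ensembl release 76 with featureCounts 1.4.6-p5. For 20 single mice and 4 pools they deposited, gene by gene, a raw count, a CPM and an RPKM value. Every value here was computed from the deposited counts, and the deposited RPKM served only to check the order of levels. Symbols came from GENCODE release M21 (GRCm38) and matched 97.3% of identifiers. Gene coordinates were those deposited with the counts.

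After 355 rRNA genes were left out, the 13052 genes that exceeded 1 CPM in 4 or more of the 20 mice entered 1 fit by edgeR 4.0.16, run in R 4.3.3 (TMM, 4 group means, quasi-likelihood test, Benjamini-Hochberg adjustment over all of them, threshold 0.05). Replicates were separate mice; pools repeat their RNA and were left out. Ccl2 was tested by two-sided exact permutation of log2(CPM + 0.5). Steps were tested on simulated data. Alternatives were DESeq2 1.42.0 size factors and Wald test, limma 3.58.1 voom with and without the pools, other limits on low counts, the groups compared alone, a replicate block, thinning, a GC correction and each mouse left out; plain library totals were added after seeing the data. Correlations are Pearson's r of log2(CPM + 0.5). Python 3.11.15, scipy 1.17.1 and matplotlib 3.10.9 were used.

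The genes named are the 10 chemokine genes, the receptors of these ligands, genes of the other lists that were called in a genotype or diet contrast, and the 3 genes most like each chemokine gene; the remaining genes, such as Tnf, Ifng, Irf1, Art3 and Lpin1, and markers with no call were named after their values were seen. The chemokine genes and the lists were chosen with earlier results of these data known. Some genes of the lists are not reported here and are in none of the list counts.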

Additional observations from a re-analysis of the deposited data

Results flagged for a closer look

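Values of the 10 chemokine genes were screened in each group of 5 mice for a highest or lowest mouse far from the nearest other mouse (Dixon's test at 95%), in 40 combinations of a gene and a group. The screen picked out 8, where chance gives about 1 in 20. In Adn-Lpin1-/- HFD, mouse 2 stood above the others for Ccl5 (6.10 CPM, next 2.07), Ccl24 (3.68 CPM, next 2.05) and Cxcl9 (52.8 CPM, next 20.9), and it also had the highest Kupffer cell marker sum, 409 CPM. In the same group, mouse 3 stood below the others for Cxcl1 (4.37 CPM, next 7.18). In WT HFD, mouse 5 stood above the others for Ccl9 (58.3 CPM, next 31.1). In Adn-Lpin1-/- LFD, mouse 5 stood above for Ccl5 (2.16 CPM, next 1.43). In WT LFD, mouse 3 stood above for Cxcl1 (6.16 CPM, next 4.22) and mouse 2 below for Cxcl12 (249 CPM, next 308). The labels give no batch or date for these mice, and what sets them apart was not tested.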

How the results depend on the processing

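The calls of Ccl9 by genotype on an HFD, and of Ccl9 and Ccl6 averaged over both diets, held in every alternative and with each mouse left out, whereas other calls were near the threshold. For genotype on an LFD 0 of 9 were called, beside 1877 of all 13052 genes. Voom with quality weights called 1 (2217 of 13052 over all genes), voom with the pools 4 (4149 of 13021), and the fit of only the groups compared 1 (1571 of 13052). For genotype on an HFD 3 were called, beside 2434 of 13052 genes. Plain library totals, chosen after seeing the data, called 5 (3178 of 13052), voom with quality weights 1 (2447) and voom with the pools 6 (4624 of 13021). DESeq2's Wald test (2917 of 13052), the groups compared alone (1982) and the GC correction (2095 of 12983) called 4 each, adding Ccl6. With filterByExpr's limit 4 were called, adding Ccl2 (2484 of 16870). For diet in Adn-Lpin1-/- 2 were called, beside 321 of 13052 genes, and voom with the pools called 4, beside 2327 of 13021. Pools repeat the RNA of the mice, so their fit counts the same mice again. With mice left out in turn, the number of genes called ran from 0 to 1 for genotype on an LFD, from 1 to 4 for genotype on an HFD, from 0 to 2 for diet in Adn-Lpin1-/-, and from 2 to 4 for genotype averaged over diets; it stayed at 0 for diet in WT and for the difference between the diets. On an HFD, only Ccl9 was called without Adn-Lpin1-/- mouse 2 or 5 or WT mouse 2, 3, 4 or 5. On an LFD, 1 gene was called without Adn-Lpin1-/- LFD mouse 1 (Ccl6) or WT HFD mouse 5 (Ccl9). For diet in Adn-Lpin1-/-, 0 were called without LFD mouse 3 or HFD mouse 1. The cause of these changes was not tested.

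Directions that reversed belonged to values that had not passed the threshold; ranges are over mice left out in turn. On an LFD, Cxcl9 turned to 0.01 with plain library totals and 0.00 with the GC trend removed (-0.23 to 0.10), Cxcl10 to -0.14 with voom and the pools (-0.17 to 0.34), and Ccl24 ran from -0.24 to 0.13. On an HFD, Cxcl12 turned to 0.11 with plain library totals (-0.09 to 0.03) and Ccl5 ran from -0.10 to 1.08. Between diets in WT, Ccl24 turned to -0.07 with voom and the pools and -0.10 after thinning (-0.13 to 0.24), and Ccl2 ran from -0.128 to 0.119. Between diets in Adn-Lpin1-/-, Ccl5 ran from -0.06 to 0.83, Cxcl12 from -0.02 to 0.12 and Cxcl13 from -0.04 to 0.66. The difference between the diets turned to -0.03 for Ccl6 with voom and the pools (-0.12 to 0.17), and Ccl5 averaged over diets ran from -0.18 to 0.40.

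The replicate numbers are shared between groups but do not pair the mice: deviations of same-numbered mice correlated at -0.415 to 0.281, and 5 of 20 mice were nearest to a mouse of their own number. With the replicate number as a block, 2 chemokine genes were called by genotype on an HFD (2012 of 13052 over all genes), where Cxcl13 had adjusted p = 0.0591. By diet in Adn-Lpin1-/- 2 were called (214 of 13052). The order of the 10 levels was the same in RPKM. Of the 27 most like genes, 11 were shared when deviations from group means were used. Low counts limit Ccl2 and Cxcl13: over 4 to 157 and 8 to 246 reads per mouse, small differences were not detectable.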
